A study of Mus musculus with 2 samples.

Results

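Type 2 cytokines act on cells through a small set of shared receptor chains, and 10 genes of these receptors were followed across the cells of the mouse dura, the outermost of the membranes around the brain. They were Il4ra, Il13ra1, Il13ra2, Il2rg, Stat6, Il5ra, Csf2ra, Csf2rb, Il9r and Egfr. The genes were taken by name from the 19347 genes of the authors' count table, and all 10 were found there. Levels were read in every deposited cluster and, within the lymphoid cluster 9, in the cell types the authors named there (ILC2s, NK, Tcells and gdTcells). The study compared dural meninges of Il33-deficient mice with those of heterozygous mice at 2 weeks of age (P14) by droplet single-cell RNA sequencing. KO mice carried the Il33 mCherry reporter allele on both chromosomes (mCherry/mCherry), and het mice carried it on 1 chromosome (mCherry/+). The reporter is a nuclear H2B-mCherry, so the het controls also have a single intact Il33 copy. Each genotype gave 1 library, in which tissue of 5 to 8 animals per genotype and sex was pooled, and sorted CD45+CD11b- lymphocytes, gp38+CD31- stroma and viable cells were mixed 1:1:2.

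IL-4 and IL-13 share the chain IL-4Rα (Il4ra). With the common gamma chain (Il2rg) it forms the type I receptor, which binds IL-4 and is typical of blood-derived cells. With IL-13Rα1 (Il13ra1) it forms the type II receptor, which binds both cytokines and is also found on stromal cells. Both pass the signal through the transcription factor STAT6, while IL-13Rα2 (Il13ra2) binds IL-13 tightly and is known mostly as a decoy. IL-5 and GM-CSF use specific alpha chains (Il5ra, Csf2ra) with the common beta chain Csf2rb, and the IL-9 receptor (Il9r) signals together with Il2rg. Egfr is the receptor for amphiregulin, a growth factor that group 2 innate lymphoid cells (ILC2s) make beside the type 2 cytokines, and for heparin-binding EGF.

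The annotated cells numbered 6594 of 12046 barcodes in KO and 5950 of 10936 barcodes in het. Their median depth was 12203.5 UMIs (unique molecular identifiers, counted RNA molecules) in KO and 12746.5 UMIs in het. The libraries had 36 barcodes in common, 14 of them annotated. The deposited clusters and the 4 named cell types make 25 classes, of which 22 had at least 50 cells in each library. From fixed marker lists, clusters 0 and 7 were fibroblast-like, 1, 2, 6, 10 and 16 B cell-like, 3 macrophage-like, 4 osteolineage-like, 5 arachnoid barrier-like and 8 blood endothelial-like. Cluster 13 was neutrophil lineage-like with macrophage markers beside, 14 dendritic cell-like, 18 monocyte-like, 20 pericyte or smooth muscle-like and 17 neuron-like. Clusters 11 and 12 are given by number. Cluster 11 was led by Cd209a, Ccl17 and H2-Eb1, and cluster 12, led by Scgb1c1, Cma1 and Ctsg, held all markers of the mast cell or basophil, granulocyte progenitor and osteoclast lists, while 147 of 214 KO cells and 68 of 166 het cells had neither mast cell or basophil nor progenitor markers by the rule used. The targeted gene Il33 was at 24.5 CPM in KO cells of cluster 0, against 109.6 CPM in het cells, a KO/het ratio of 0.224 (0.203 to 0.246).

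Levels are counts per 1000000 UMIs (CPM), the UMIs of a gene in all cells of a class and library over all UMIs of those cells. Brackets give exact 95% intervals, which cover counting error only. With 1 library per genotype there is no replicate and no test, so a difference between KO and het cannot be told apart from differences of animals, sort or preparation. A KO/het difference was called where the class had at least 50 cells per library, the gene had at least 100 UMIs over both libraries and the ratio was at least 1.5-fold from 1. Levels were compared between classes and not between genes.

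**Figure D1:**
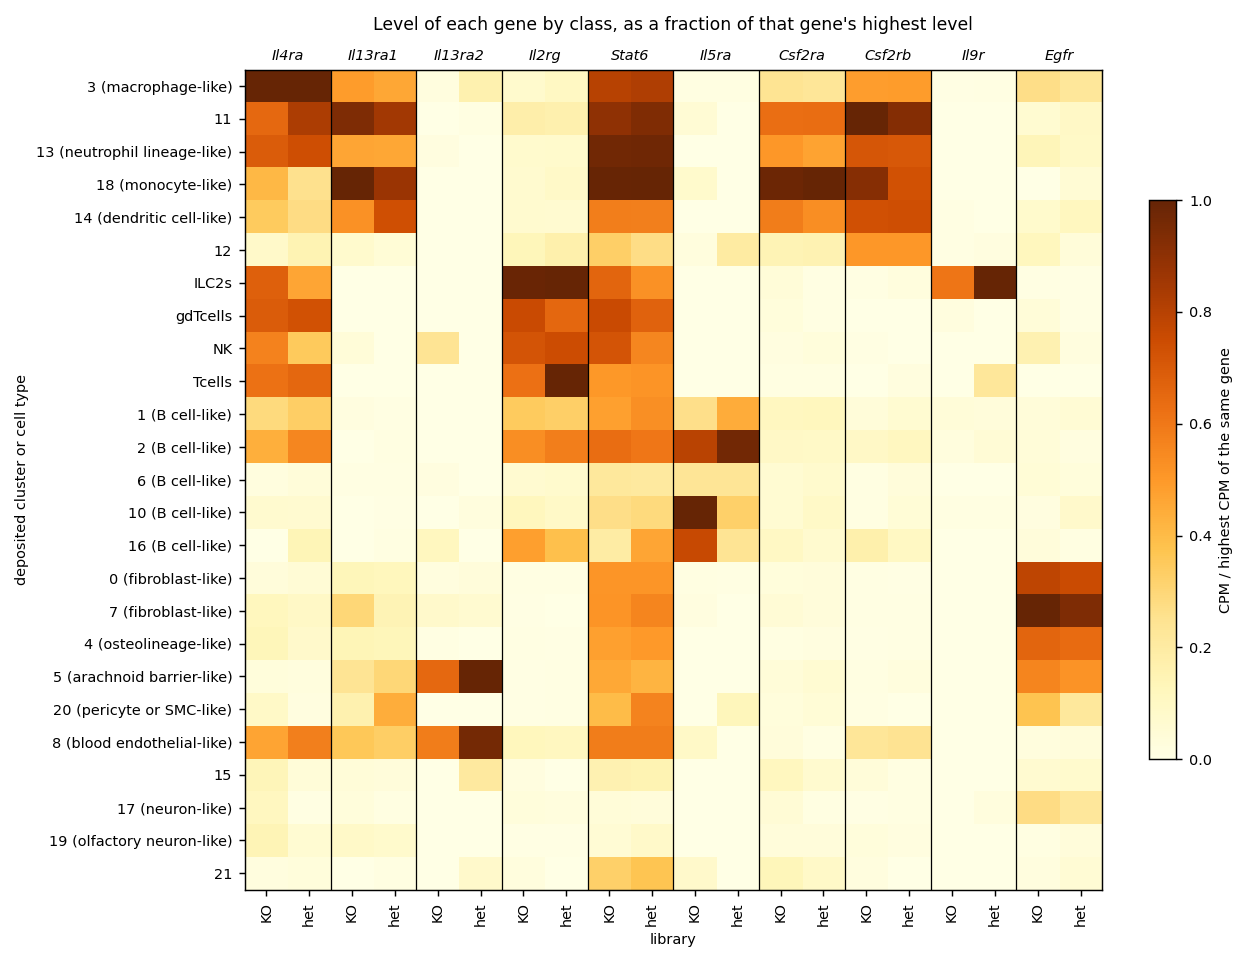
Level of each of the 10 genes (pairs of columns, KO left of het) in the 25 classes (rows), as CPM divided by the highest CPM of the same gene, on a colour scale from 0 to 1. Il2rg is highest in the lymphoid classes, Csf2ra and Csf2rb in the myeloid classes, Egfr in clusters 7, 0, 4 and 5, and Il9r in ILC2s.

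Il4ra (chromosome 7, 125552120 to 125579474, plus strand, GRCm38) had 1720 UMIs in KO and 1747 UMIs in het. It was highest in the macrophage-like cluster 3, at 71.6 CPM in KO (65.6 to 78.0) and 71.4 CPM in het (65.5 to 77.6), a ratio of 1.00 (0.889 to 1.13). Both libraries gave the same level there, and a UMI was found in 60.5% of KO and 65.0% of het cells. Cluster 11 followed at 46.6 CPM in KO and 59.1 CPM in het, a ratio of 0.788 (0.666 to 0.933). Cluster 13 had 49.6 CPM in KO and 53.0 CPM in het. The gdTcells had 49.6 CPM in KO and 52.3 CPM in het. The intervals of cluster 3 did not overlap those of cluster 13, but overlapped those of cluster 11 in het and those of gdTcells in both libraries, so the first places are not fully separated. ILC2s held 30 Il4ra UMIs in KO, 48.4 CPM (32.7 to 69.1), and 25 UMIs in het, 33.2 CPM (21.5 to 49.1). Their ratio of 1.46 (0.828 to 2.58) rests on too few UMIs for a call, and the intervals of the libraries overlapped. The blood endothelial-like cluster 8 had 33.3 CPM in KO and 41.3 CPM in het. The B cell-like cluster 2 had 31.1 CPM in KO and 39.9 CPM in het. Fibroblast-like cluster 0 was near the low end of the order, with 2.46 CPM in KO and 3.53 CPM in het, as was B cell-like cluster 6, with 1.68 CPM in KO and 2.71 CPM in het.

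Il13ra1 (X, 36112110 to 36171259, plus strand) had 1788 UMIs in KO and 1628 UMIs in het. The monocyte-like cluster 18 was highest, at 81.1 CPM in KO and 70.5 CPM in het. Cluster 11 had 76.3 CPM in KO and 68.9 CPM in het. Unlike Il4ra, the chain stood lower in cluster 3, at 39.8 CPM in KO and 37.3 CPM in het. Dendritic cell-like cluster 14 had 42.2 CPM in KO (34.5 to 51.0) and 59.8 CPM in het (51.4 to 69.2). This ratio of 0.705 (0.549 to 0.902) excluded 1 but was under the fold set for a call. The stromal and barrier clusters carried the chain too, with 10.6 CPM in KO and 10.1 CPM in het in cluster 0, and 19.5 CPM in KO and 24.4 CPM in het in cluster 5. ILC2s, Tcells and gdTcells held 0 Il13ra1 UMIs in both libraries. At 3 counts, this allows up to 4.84 CPM in KO and 3.99 CPM in het in ILC2s. The share of cells with a UMI was 0.603% in KO and 0.31% in het in the B cell-like cluster 1, taken as the background of free RNA, whose median depth was 4178 UMIs in KO and 3934.5 UMIs in het.

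Il13ra1 was 1 of the called differences, in the fibroblast-like cluster 7, which was led by Pi16, Aldh1a2 and Dpt. It had 134 UMIs, 24.4 CPM (20.4 to 28.9), in KO and 55 UMIs, 11.8 CPM (8.88 to 15.4), in het, a ratio of 2.07 (1.499 to 2.88), in a cluster where 2.77% of all genes were called higher. A UMI was found in 26.6% of KO and 17.8% of het cells, so the higher level was spread over many cells. The other fibroblast-like cluster, 0, had a ratio of 1.05 (0.866 to 1.28). Among male-labelled cells of cluster 7, KO had 107 UMIs (31.5 CPM) and het 29 UMIs (10.6 CPM), a ratio of 2.98 (1.96 to 4.66). Among female-labelled cells, KO had 27 UMIs (12.9 CPM) and het 26 UMIs (13.6 CPM), a ratio of 0.948 (0.533 to 1.69), so the difference was seen in male-labelled cells. In all 12544 cells the deposited sex label was female exactly where the cell had an Xist UMI, so female cells of low depth may carry the male label. The summed level of 8 macrophage markers in cluster 7 was 47.1 CPM in KO and 101.0 CPM in het, with 7 of 8 lower in KO. Monocyte markers summed to 50.2 CPM in KO and 40.1 CPM in het, with 4 of 6 higher in KO, and dendritic cell markers to 34.6 CPM in KO and 28.7 CPM in het, with 4 of 7 higher in KO. Their part in the Il13ra1 value was not tested.

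Il2rg (X, 101264378 to 101268255, minus strand) encodes the chain that IL-2, IL-4, IL-7, IL-9, IL-15 and IL-21 receptors share, and it was highest in the lymphoid classes of cluster 9. ILC2s had 263 CPM in KO and 266 CPM in het, with a UMI in 90.8% of KO and 93.9% of het cells and a ratio of 0.990 (0.7997 to 1.22). The gdTcells had 202 CPM in KO and 174 CPM in het, and NK cells had 192 CPM in KO and 199 CPM in het. The B cell-like cluster 2 had 142 CPM in KO and 154 CPM in het. The intervals of these lymphoid levels overlapped between KO and het in each class. Tcells had 41 UMIs in KO and 74 UMIs in het, from 32 and 30 cells, too few for a call. In the macrophage-like cluster 3, Il2rg had 19.1 CPM in KO and 27.5 CPM in het. Its ratio of 0.694 (0.556 to 0.863) was under the fold set for a call, and was 0.885 in female-labelled and 0.528 in male-labelled cells. In cluster 0, taken as the background, a UMI was found in 3.03% of KO and 2.54% of het cells at a median depth of 18094 UMIs in KO and 19085 UMIs in het. A predicted gene, Gm20489, lies over Il2rg on the same strand, so reads of the pair may be split or dropped.

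**Figure D2:**
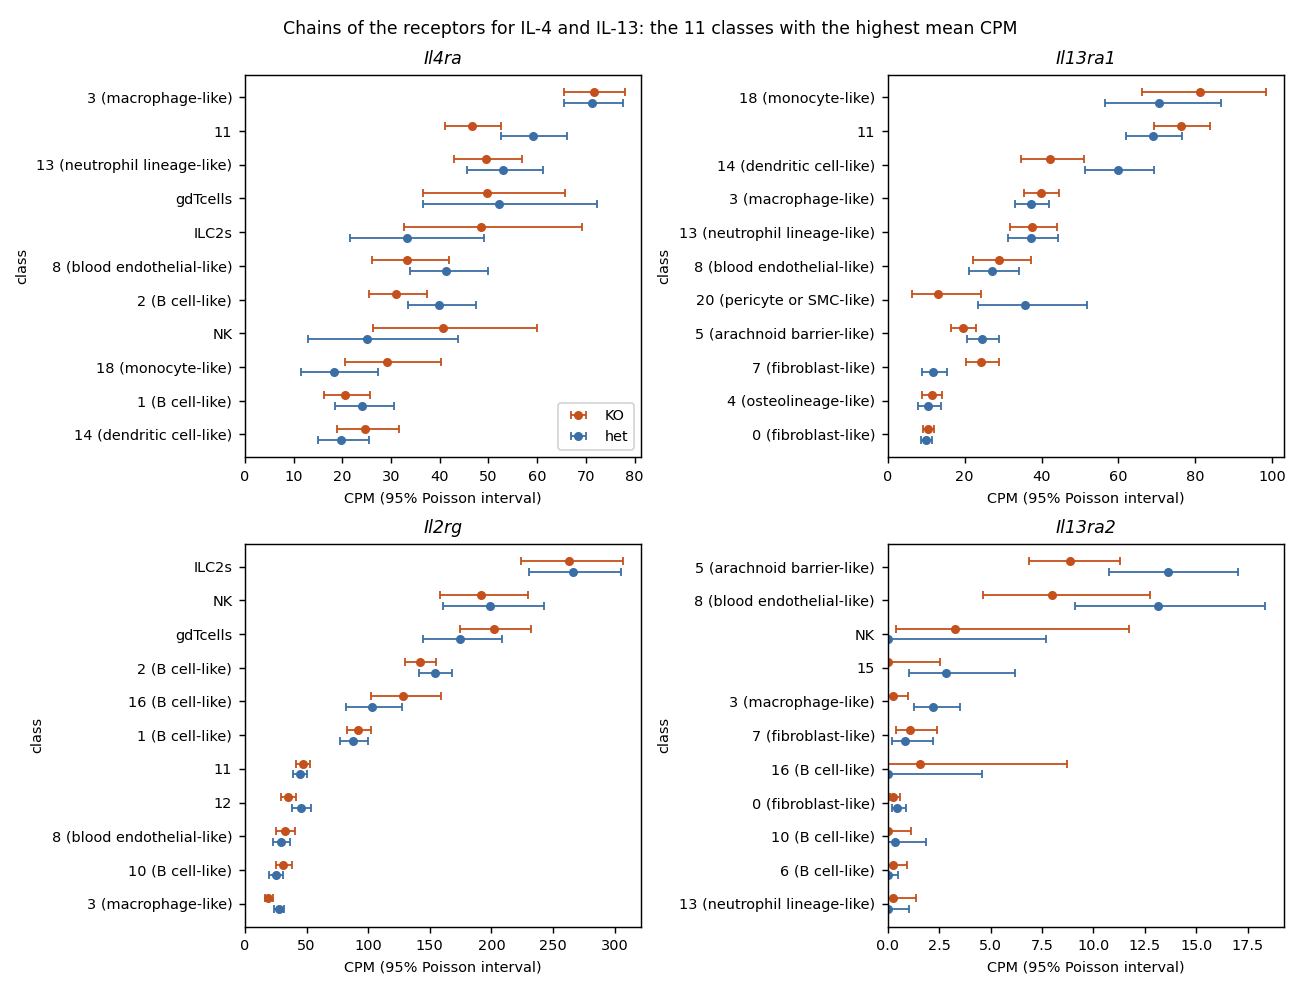
CPM (horizontal axis) of Il4ra, Il13ra1, Il2rg and Il13ra2 in the 11 classes with the highest mean CPM of each gene, among classes with at least 50 cells per library, with the KO point above the het point and exact 95% Poisson intervals as bars. Of the classes shown, Il4ra is highest in cluster 3, Il13ra1 in clusters 18 and 11, Il2rg in ILC2s, NK cells and gdTcells, and Il13ra2 in clusters 5 and 8.

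The chain found beside Il4ra in the same cell varied between classes. Of 20 KO ILC2s with an Il4ra UMI, 19 also had Il2rg and 0 had Il13ra1, and of 16 het ILC2s with one, 15 had Il2rg and 0 had Il13ra1. The gdTcells were alike, with 25 of 32 KO cells and 18 of 24 het cells having Il2rg and none in either library having Il13ra1. In the B cell-like cluster 2, 53 of 107 KO cells and 63 of 111 het cells with Il4ra had Il2rg, and 0 had Il13ra1. No cell with Il4ra in these 3 classes had an Il13ra1 UMI, so only the pair of the type I receptor was detected there. Tcells and B cell-like clusters 1 and 16 had none either. Other lymphoid classes held a few: 2 of 17 KO and 0 of 10 het NK cells with Il4ra had both partners. In het, 1 of 13 such cells of cluster 10 had both, and in cluster 6, of 15, 1 had both and 1 had Il13ra1 alone.

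Myeloid cells carried either or both partners. In cluster 11, 66 of 133 KO cells and 63 of 122 het cells with Il4ra had both Il2rg and Il13ra1, and 41 KO and 38 het cells had Il13ra1 alone. In cluster 3, Il13ra1 alone was found in 95 of 266 KO cells and 81 of 290 het cells, and both partners in 24 KO and 43 het cells. Monocyte-like cells (cluster 18) with Il4ra had Il13ra1 alone in 15 of 24 KO cells and 9 of 22 het cells, and neither partner in 7 KO and 9 het cells. In fibroblast-like cluster 0, the few cells with Il4ra had Il13ra1 alone in 16 of 48 KO cells and 12 of 58 het cells, and neither partner in 26 KO and 45 het cells. A cell without a UMI can still express a chain at these depths, and free RNA and doublets can add UMIs of a chain that a cell lacks, so the counts describe detection. Cells with high doublet scores were 29.5% of KO and 26.7% of het cells in cluster 3.

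**Figure D3:**
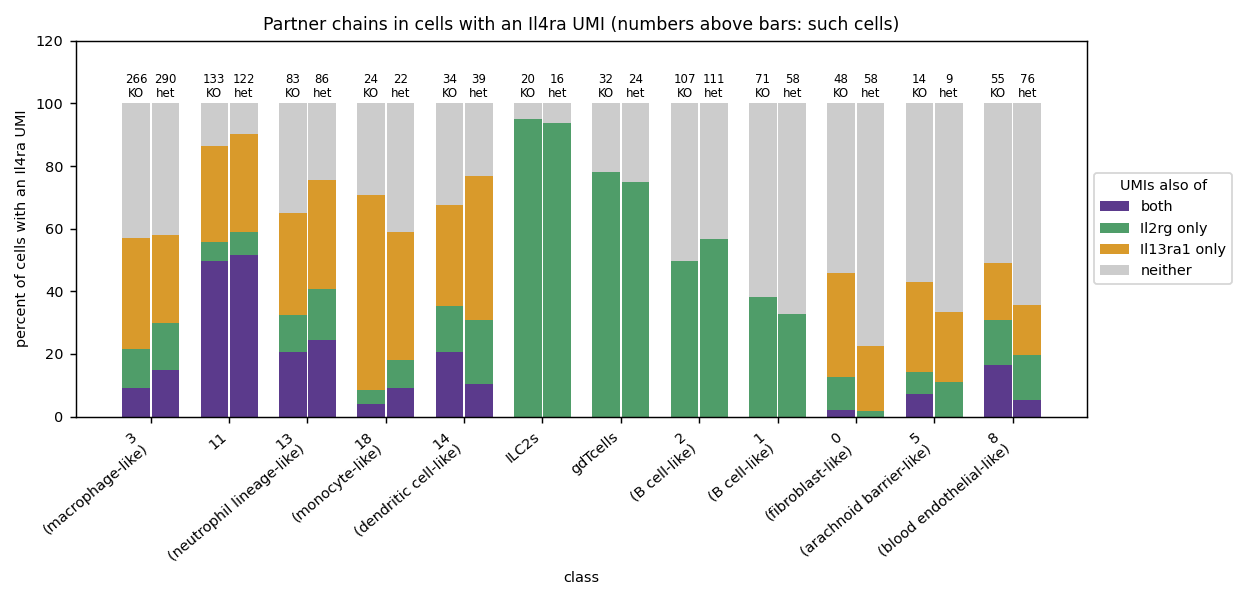
Share of the cells with an Il4ra UMI that also had Il2rg only, Il13ra1 only, both or neither, in percent (vertical axis), by class, with the KO bar left of the het bar and the number of such cells above each bar. ILC2s, gdTcells and cluster 2 show Il2rg and no Il13ra1, and in cluster 11 the share with both is 66 of 133 KO and 63 of 122 het cells.

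Il13ra2 (X, 147383476 to 147429192, minus strand), the IL-13 decoy, was rare, with 104 UMIs in KO and 150 UMIs in het. The arachnoid barrier-like cluster 5 held 63.5% of these UMIs in KO and 51.3% in het, and the blood endothelial-like cluster 8 held 16.3% in KO and 22.7% in het. Cluster 5 had 66 UMIs, 8.87 CPM (6.86 to 11.3), in KO and 77 UMIs, 13.6 CPM (10.7 to 17.02), in het. A UMI was found in 8.06% of KO and 12.2% of het cells. The ratio of 0.651 (0.462 to 0.917) was called lower, as were 1.79% of all genes in the cluster. It was 0.211 (0.099 to 0.413) in female-labelled cells, from 11 KO and 48 het UMIs, and 1.20 (0.751 to 1.95) in male-labelled cells, from 55 KO and 29 het UMIs. The direction thus turned with the sex label. The summed level of 6 arachnoid barrier markers in cluster 5 was 16121 CPM in KO and 8970 CPM in het, higher in KO for 4 of 6. Its part in the Il13ra2 value was not tested. In cluster 8, 17 KO UMIs (7.97 CPM) and 34 het UMIs (13.1 CPM) gave a ratio of 0.608 (0.318 to 1.12), too few for a call. Cells with both Il13ra1 and Il13ra2 made up 3.49% of KO and 6.78% of het cells in cluster 5, against 2.08% in KO and 3.43% in het from the product of the single shares. These shares were taken without thinning, and deeper cells are more likely to show both genes, so they describe detection only. Cluster 1, taken as the background, had 0 UMIs of Il13ra2 in both libraries.

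Stat6 (chromosome 10, 127642986 to 127660957, plus strand), the shared effector of both IL-4 receptors, had UMIs in all 25 classes of both libraries. It was highest in myeloid classes, with 55.9 CPM in KO and 56.2 CPM in het in cluster 18 and 54.5 CPM in KO and 54.7 CPM in het in cluster 13. Cluster 3 had 45.0 CPM in KO and 45.9 CPM in het. Fibroblast-like cluster 0 had 28.6 CPM in both libraries, a ratio of 1.00 (0.893 to 1.13). B cell-like cluster 6 had 12.1 CPM in KO and 11.7 CPM in het, and the neuron-like cluster 17 had 2.31 CPM in KO and 1.77 CPM in het. Stat6 had 14 class values with at least 100 UMIs, and none was 1.5-fold from 1. No background class was fixed for Stat6 and Il4ra, which most cell types express. Genes on the opposite strand lie over Stat6 (Nab2), Il4ra (Gm44876) and Egfr (Egfros), and the labels do not say whether counting used strand.

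Csf2ra (chromosome 19, 61223957 to 61228429, minus strand), the alpha chain for GM-CSF, was highest in myeloid classes, with 3769 UMIs in KO and 3564 UMIs in het. Cluster 18 had 266 CPM in KO and 271 CPM in het, with a UMI in 88.0% of KO and 94.5% of het cells. Cluster 11 had 171 CPM in KO and 172 CPM in het. In both classes the intervals of the libraries overlapped. Cluster 14 had 158 CPM in KO and 144 CPM in het, and cluster 13 had 137 CPM in KO and 127 CPM in het. Cluster 18 stood apart from all other classes, and none of these 4 ratios reached 1.25-fold. In cluster 0, taken as the background, 12.99% of KO and 16.1% of het cells had a UMI, at 8.05 CPM in KO and 9.15 CPM in het. Cluster 5 had 11.6 CPM in KO and 14.9 CPM in het. Osteolineage-like cluster 4 was lower than cluster 0, with 3.56 CPM in KO and 5.21 CPM in het. The part of free RNA in these levels was not tested.

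The promoters of the genes were read from RefSeq (GRCm38.p6, 250 bases before to 50 after the gene start), which held 9 of the 10 genes, and Csf2rb was not among them. The motif GAGGAA on either strand, the core bound by the myeloid and B cell factor PU.1, was found in 5 of 9 (Il13ra2, Stat6, Il5ra, Csf2ra and Egfr), against 28.3% of all 32851 promoters. The spaced motif TTCNNNNGAA of the STAT6 type was found in 1 of 9 (Il5ra), against 6.95% of all promoters. The promoters of Csf2ra and Il5ra are shown, since these alpha chains were found mostly in myeloid (Csf2ra) and in B cell-like (Il5ra) classes. Csf2ra is at chr19:61228369-61228668 and Il5ra at chr6:106748988-106749287, both on the minus strand and printed 5′ to 3′ along the gene, with GAGGAA in capitals.
Csf2ra: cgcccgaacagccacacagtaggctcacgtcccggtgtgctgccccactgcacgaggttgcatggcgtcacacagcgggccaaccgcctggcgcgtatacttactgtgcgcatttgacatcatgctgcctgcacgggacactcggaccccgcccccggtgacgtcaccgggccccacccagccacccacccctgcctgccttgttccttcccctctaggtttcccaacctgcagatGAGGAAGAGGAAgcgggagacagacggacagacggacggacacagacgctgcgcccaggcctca
Il5ra: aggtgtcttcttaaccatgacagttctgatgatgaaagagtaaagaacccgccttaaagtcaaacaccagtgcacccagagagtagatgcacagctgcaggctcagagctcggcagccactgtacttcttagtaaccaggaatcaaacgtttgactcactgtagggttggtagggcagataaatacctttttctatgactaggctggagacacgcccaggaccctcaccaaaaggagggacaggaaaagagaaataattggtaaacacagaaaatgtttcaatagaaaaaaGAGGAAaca
Csf2ra holds 2 adjacent matches and Il5ra holds 1, and a match describes the letters and not a bound site.

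Csf2rb (chromosome 15, 78325752 to 78353847, plus strand), the signalling chain shared by the IL-3, IL-5 and GM-CSF receptors, followed the same classes. Cluster 11 had 155 CPM in KO and 143 CPM in het, and cluster 14 had 114 CPM in KO and 115 CPM in het. Cluster 18 had 143 CPM in KO and 113 CPM in het, a ratio of 1.26 (1.01 to 1.58) that was under the fold set for a call. Cluster 12 had 78.7 CPM in KO and 78.2 CPM in het, but the direction differed by sex label. The ratio there was 1.68 (1.28 to 2.22) in female-labelled cells and 0.692 (0.550 to 0.869) in male-labelled cells. Within it, the cells with mast cell or basophil markers (43 KO and 54 het cells) had 304 CPM in KO (255 to 359) and 358 CPM in het (303 to 419), levels whose intervals overlapped. Cells with both Csf2ra and Csf2rb made up 75.4% of KO and 79.1% of het cells in cluster 11. They made up 64.1% of KO and 71.4% of het cells in cluster 18 and 68.3% of KO and 68.9% of het cells in cluster 13. These shares lay close to the product of the single shares. The paralog Csf2rb2, which in mouse serves the IL-3 receptor, had 23.8 CPM in KO and 27.5 CPM in het in cluster 11. Csf2rb and Csf2rb2 shared 0 of 451 50-base words in the last 500 bases of their transcripts, and 18.4% of the words of the whole Csf2rb transcript, so reads near the 3′ end would not be shared, while the end the kit reads is not named in the labels.

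Il5ra (chromosome 6, 106710357 to 106749037, minus strand), the alpha chain for IL-5, was found mostly in B cell-like clusters, with 109 UMIs in KO and 86 UMIs in het over all cells. Cluster 2 had 8.19 CPM in KO and 9.99 CPM in het. Histone-rich cluster 10 had 33 UMIs, 10.3 CPM (7.11 to 14.5), in KO and 10 UMIs, 3.37 CPM (1.61 to 6.19), in het. A UMI was found in 10.8% of KO and 3.96% of het cells there. The ratio of 3.07 (1.48 to 6.98) rests on 43 UMIs and was not counted as a call. ILC2s held 0 Il5ra UMIs in both libraries. In cluster 12, 1 UMI was found in KO and 7 in het.

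Csf2ra was also called lower in cluster 10, with 50 UMIs, 15.6 CPM (11.6 to 20.6), in KO and 73 UMIs, 24.6 CPM (19.3 to 30.9), in het, a ratio of 0.636 (0.435 to 0.925). In that cluster 4.14% of all genes were called lower. Neutrophil lineage markers in the same cells summed to 51.0 CPM in KO and 3091 CPM in het, lower in KO for 6 of 6. Macrophage markers summed to 29.7 CPM in KO and 294 CPM in het, lower in KO for 8 of 8. No marker of either list was at 0 in both libraries. Cells with high doublet scores (the top 10% by Scrublet) were 5.62% of KO and 10.1% of het cells of cluster 10. Without them the ratio was 0.707, under the fold set for a call. The part of these markers in the value was not tested.

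Il9r (chromosome 11, 32187541 to 32200279, minus strand), the alpha chain for IL-9, had 41 UMIs in KO and 64 UMIs in het, of which ILC2s held 43.9% in KO and 56.2% in het. ILC2s had 18 UMIs, 29.1 CPM (17.2 to 45.9), in KO and 36 UMIs, 47.9 CPM (33.5 to 66.3), in het. A UMI was found in 26.2% of KO and 42.4% of het cells, and after thinning each cell to 1000 UMIs in 3.1% of KO and 5.3% of het cells. The ratio was 0.607 (0.325 to 1.10), with overlapping intervals and too few UMIs for a call. All other classes held at most 8 UMIs per library, and the background cluster 0 had 0.26% of KO and 0.102% of het cells with a UMI. Cells with UMIs of both Il9r and Il2rg, the chains of the IL-9 receptor, were 16 of 65 KO ILC2s (24.6%) and 27 of 66 het ILC2s (40.9%). Most ILC2s had an Il2rg UMI, so these shares lie close to those of Il9r alone.

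**Figure D4:**
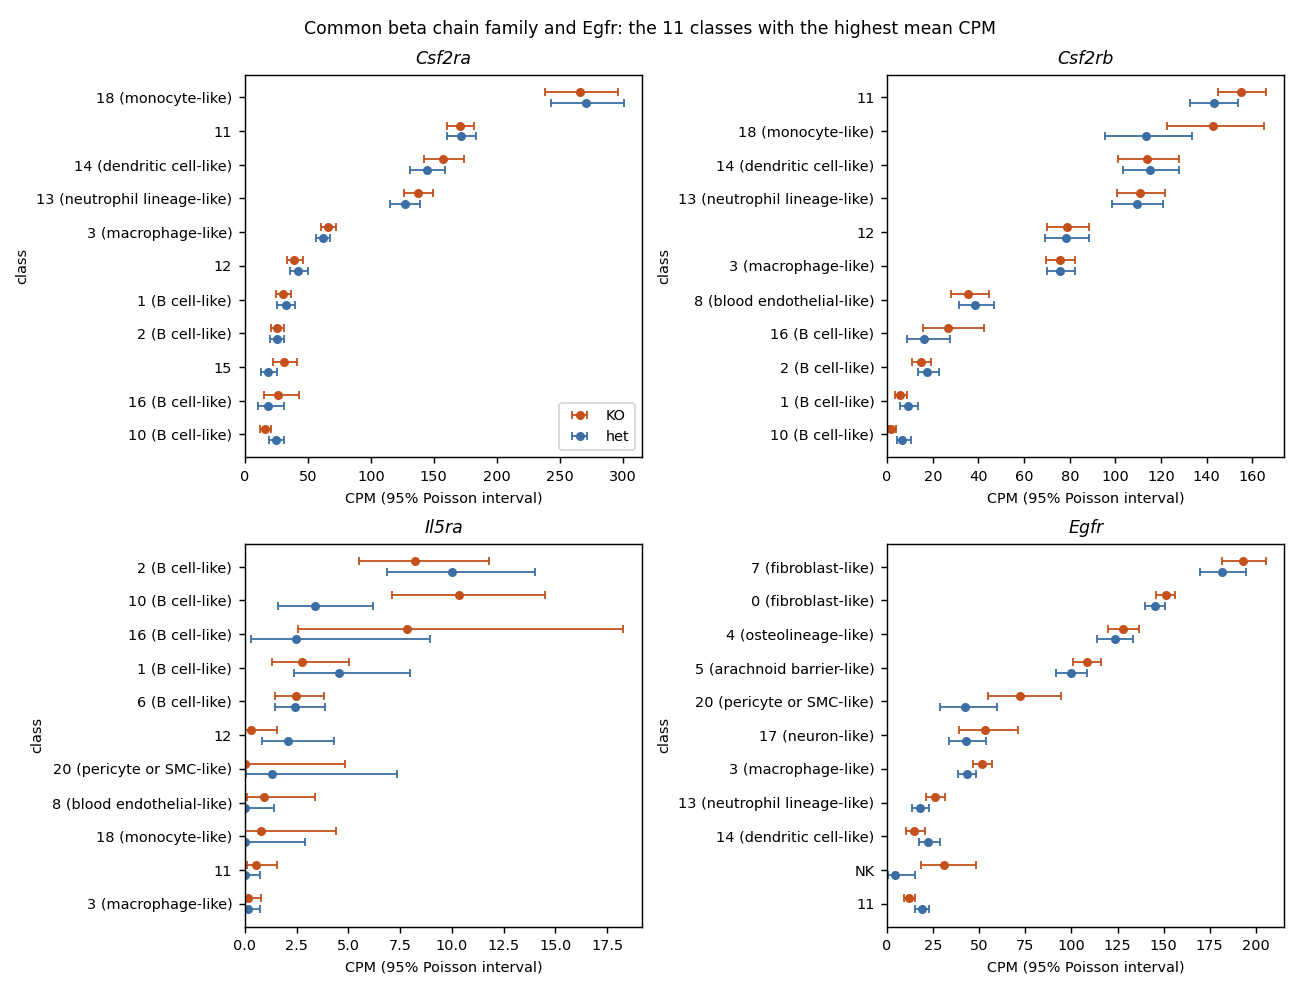
CPM (horizontal axis) of Csf2ra, Csf2rb, Il5ra and Egfr in the 11 classes with the highest mean CPM of each gene, among classes with at least 50 cells per library, with the KO point above the het point and exact 95% Poisson intervals as bars. Csf2ra and Csf2rb are both highest in clusters 18, 11, 14 and 13, Il5ra in B cell-like clusters and Egfr in clusters 7, 0, 4 and 5.

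Egfr (chromosome 11, 16752203 to 16918158, plus strand), the receptor tyrosine kinase for amphiregulin and heparin-binding EGF, was the stromal gene of the group, with 6984 UMIs in KO and 5789 UMIs in het. Cluster 7 had 193 CPM in KO and 182 CPM in het, and cluster 0 had 151 CPM in KO and 145 CPM in het. Osteolineage-like cluster 4 had 128 CPM in KO and 123 CPM in het, and cluster 5 had 108 CPM in KO and 99.9 CPM in het. Cluster 0 alone held 46.5% of the Egfr UMIs in KO and 49.1% in het. The 4 stromal ratios lay between 1.04 and 1.08, and each interval included 1. By sex label, cluster 7 had 1.33 (1.16 to 1.52) in female-labelled and 0.893 (0.788 to 1.01) in male-labelled cells. Cluster 0 had 0.971 (0.903 to 1.04) in female-labelled and 1.10 (1.03 to 1.18) in male-labelled cells. For clusters 4 and 5 the ratios were 1.03 and 1.08 in female-labelled cells, and 1.10 and 1.10 in male-labelled cells. In pericyte or smooth muscle-like cluster 20, Egfr had 55 UMIs (72.3 CPM) in KO and 32 UMIs (42.2 CPM) in het, under the UMIs needed for a call. ILC2s had 1 UMI in each library.

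Egfr was low in clusters 11, 12 and 14, where 3 of the 6 called differences of the receptor genes lay. Cluster 1, taken as the background, had 7.13 CPM in KO and 9.88 CPM in het. In cluster 12, Egfr had 83 UMIs, 23.0 CPM (18.3 to 28.5), in KO and 23 UMIs, 6.84 CPM (4.34 to 10.3), in het, a ratio of 3.36 (2.10 to 5.60). Cluster 11 had 67 UMIs, 11.9 CPM, in KO and 96 UMIs, 18.7 CPM, in het, a ratio of 0.636 (0.459 to 0.878). Cluster 14 had 37 UMIs, 14.7 CPM, in KO and 67 UMIs, 22.4 CPM, in het, a ratio of 0.658 (0.428 to 0.997). Of all genes, 8.48% were called higher in cluster 12, and 4.64% were called lower in cluster 11 and 4.62% in cluster 14. The direction of Egfr differed between the clusters, higher in KO in cluster 12 and lower in clusters 11 and 14.

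Fibroblast markers moved with Egfr in these clusters. The summed level of 8 fibroblast markers in cluster 12 was 2838 CPM in KO and 792 CPM in het, higher in KO for 8 of 8. Osteoclast markers moved with Egfr there too, at 2747 CPM in KO and 624 CPM in het, higher in KO for 4 of 4. In cluster 11 the fibroblast sum was 1879 CPM in KO and 3288 CPM in het, lower in KO for 7 of 8. In cluster 14 it was 2814 CPM in KO and 4680 CPM in het, lower in KO for 5 of 8. None of the 8 markers was at 0 in these clusters. In cluster 12, 80 of 83 KO Egfr UMIs and 17 of 23 het Egfr UMIs came from cells with neither mast cell or basophil nor progenitor markers. Cluster 12 also differed in depth, with a median of 9945.5 UMIs in KO and 17454 UMIs in het. In cluster 14, cells with high doublet scores held 33 of 37 KO and 59 of 67 het Egfr UMIs, and in cluster 11 they held 42 of 67 KO and 67 of 96 het UMIs. Without those cells the ratio was 0.777 in cluster 11. In cluster 12 it was 11.4 (6.01 to 23.8) without them, from 75 KO and 11 het UMIs. In cluster 11 the ratio was 1.06 in female-labelled cells, from 55 KO and 62 het UMIs, and 0.200 in male-labelled cells, from 12 KO and 34 het UMIs. In cluster 14 it was 0.792 in female-labelled cells, 0.2999 in male-labelled cells and 0.549 (0.121 to 2.05) without high doublet scores. The part of fibroblast RNA, osteoclast RNA or doublets in the Egfr differences was not tested.

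Over all genes and classes, 78 of 220 pairs of a gene and a class had at least 100 UMIs, from 8 of the 10 genes, since Il5ra and Il9r had too few in each class. Of these, 2 were called higher in KO (2.56%, against 2.12% of all gene and class pairs) and 4 lower (5.13%, against 2.61%). A count of 2 and 4 is too small to set these shares apart from the background. The median KO/het ratio of the 78 was 1.00, the range was 0.636 to 3.36, and 57 lay within 1.25-fold of 1. The interval included 1 in 64 and excluded it in 14. The 14 were the 6 called and Il4ra in cluster 11, Il13ra1 in cluster 14, Il2rg in clusters 3 and 12, Csf2rb in cluster 18 and Egfr in clusters 3, 6 and 13. In the class with the highest mean level of each gene, the ratio was 1.00 for Il4ra, 0.990 for Il2rg, 0.995 for Stat6, 0.983 for Csf2ra, 1.06 for Egfr, 1.08 for Csf2rb and 1.15 for Il13ra1, and it was 0.651 for Il13ra2.

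**Figure D5:**
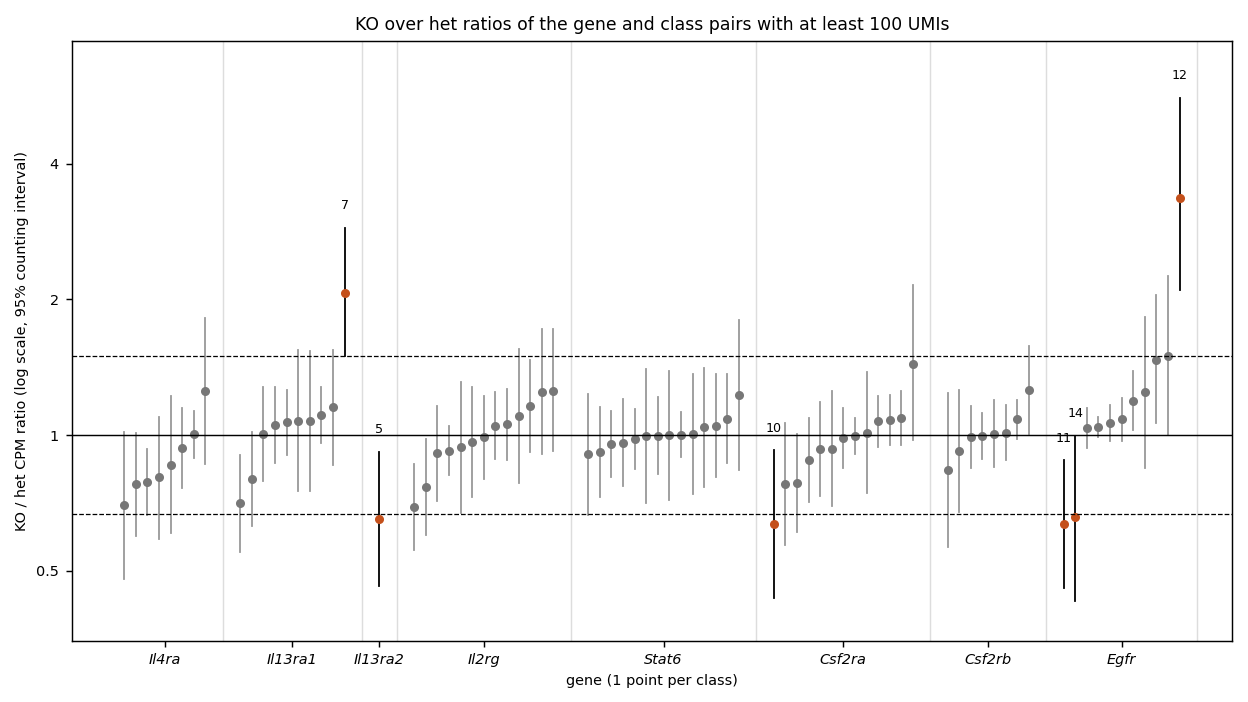
KO/het CPM ratio (log axis) of each of the 78 gene and class pairs with at least 100 UMIs over both libraries, grouped by gene, with 95% conditional binomial intervals as bars and dashed lines at 1.5-fold in each direction; called pairs are coloured and carry their cluster number. Of the points, 57 lie within 1.25-fold of 1, with Egfr in cluster 12 at 3.36 and Il13ra1 in cluster 7 at 2.07 above the upper line.

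The ligands of these receptors were read in the same way, and their calls were spread over few classes. Of 9 values of type 2 ligands with at least 100 UMIs, 1 was called higher and 3 lower in KO, against 2.12% and 2.61% of all gene and class pairs. Of all genes, 7.4% were called lower in ILC2s and 4.18% in cluster 12, and 0.65% were called higher in cluster 0. Cells with high doublet scores were 4.62% of KO and 16.7% of het ILC2s. In ILC2s, Il5 had 160 CPM in KO and 156 CPM in het, Il13 had 442 CPM in KO and 548 CPM in het, a ratio of 0.808 (0.691 to 0.943), and Il4 had 20 UMIs in KO and 23 in het. Csf2, which encodes GM-CSF, had 142 CPM in KO and 249 CPM in het in ILC2s, a ratio of 0.571 (0.438 to 0.740). In cluster 12, Il4 had 11.4 CPM in KO and 33.9 CPM in het, a ratio of 0.335 (0.229 to 0.483). Il13 there had 20.2 CPM in KO and 54.7 CPM in het, a ratio of 0.370 (0.278 to 0.488). The share of cells with mast cell or basophil markers in cluster 12 was 43 of 214 in KO and 54 of 166 in het, and its part in these values was not tested. Tslp in cluster 0 was the higher one, with 64 UMIs in KO and 37 in het, a ratio of 1.57 (1.03 to 2.43). Il3 and Il9 did not reach 20 UMIs over both libraries in any class.

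Ligands of Egfr gave 3 values called higher and 7 lower, of 18, against 2.12% and 2.61% of all gene and class pairs. By class, 1.44% of all genes were called lower in cluster 0, 2.5% in cluster 3 and 4.64% in cluster 11. The share called lower was 3.11% in cluster 20, 7.4% in ILC2s and 2.68% in NK cells. The share called higher was 8.48% in cluster 12 and 2.82% in gdTcells. Areg, which encodes amphiregulin, had 1526 CPM in KO and 2791 CPM in het in ILC2s, a ratio of 0.547 (0.506 to 0.591). In gdTcells it had 174 CPM in KO and 82.7 CPM in het, a ratio of 2.10 (1.55 to 2.89). Areg was also lower in cluster 11 (8.54 CPM in KO, 40.0 CPM in het), in NK cells (0.661) and in cluster 3, where 94 of 149 het UMIs came from 1 cell. Hbegf, which encodes heparin-binding EGF, was lower in cluster 0 (28.9 CPM in KO, 46.0 CPM in het), cluster 11 (12.1 CPM in KO, 35.1 CPM in het) and cluster 20 (60.5 CPM in KO, 91.0 CPM in het). Both Egfr ligands were thus called lower in cluster 11 and higher in gdTcells. Hbegf was higher in gdTcells (278 CPM in KO, 120.5 CPM in het) and in cluster 12, where 50 of 133 KO UMIs came from 1 cell.

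Of 57 values of EGFR feedback genes, 4 were called higher and 6 lower, where 2.12% and 2.61% of all gene and class pairs were. In cluster 0, Spry4, an inhibitor of receptor kinase signalling, had 4.28 CPM in KO and 7.26 CPM in het, and the ERK phosphatase gene Dusp6 had 15.7 CPM in KO and 24.8 CPM in het. Both were called lower in this class, out of 6 feedback genes with at least 100 UMIs there, where 1.44% of all genes were. A link to Egfr was not tested. In cluster 7, Spry4 had 14.6 CPM in KO and 22.1 CPM in het. Errfi1, an EGFR inhibitor, had 42.4 CPM in KO and 18.1 CPM in het in cluster 12, where Spry2 had 15.0 CPM in KO and 26.5 CPM in het. Etv5, a transcription factor downstream of ERK, had a ratio of 0.651 in cluster 5, and Lrig1, an EGFR antagonist, had a ratio of 1.54 there. Spry1 had a ratio of 1.54 in cluster 3 and 0.659 in cluster 4, and Dusp6 had a ratio of 1.62 in cluster 10.

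Genes known to respond to IL-4 or IL-13 gave 47 values, with 10 called higher and 8 lower, against 2.12% and 2.61% of all gene and class pairs. The matrix gene Postn, an IL-13 responsive gene of fibroblasts, had 684 CPM in KO and 253 CPM in het in cluster 7, a ratio of 2.70 (2.53 to 2.89). It was also called higher in clusters 8, 11, 13 and 15, outside the fibroblast-like clusters. The part of free fibroblast RNA in the Postn values of those clusters was not tested. In the other fibroblast-like cluster, 0, 3 genes of the list had at least 100 UMIs, and 0 of them were called higher or lower. The eotaxin gene Ccl11 had 56.8 CPM in KO and 93.4 CPM in het in cluster 5, and 418 CPM in KO and 207 CPM in het in cluster 20. In cluster 11, the chemokine gene Ccl17 had 77.5 CPM in KO and 258 CPM in het, with 377 of 1322 het UMIs in 1 cell. Ccl22 there had 20.5 CPM in KO and 52.5 CPM in het, with 190 of 269 het UMIs in 1 cell, and Ccl24 had 81.8 CPM in KO and 144 CPM in het, with 235 of 737 het UMIs in 1 cell. Retnla was called higher in clusters 3 and 13, with 115 of 134 and 252 of 286 KO UMIs in 1 cell each. Chil3 was called higher in cluster 18, with 324 of 448 KO UMIs in 1 cell, and lower in cluster 10, with 104 of 109 het UMIs in 1 cell. Single cells thus held most UMIs of several of these calls. The remaining calls were Ear2 higher in cluster 13, and Arg1 in NK cells, Mrc1 in cluster 6 and Clec10a in cluster 12 lower.

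Of 207 values of kinases, STATs and inhibitors, 9 were called higher and 10 lower, against the same 2.12% and 2.61%. In cluster 7, the feedback inhibitor Socs1 had 68.4 CPM in KO and 124 CPM in het, beside the higher Il13ra1. In cluster 11, Stat5a, which GM-CSF receptors activate, had 14.6 CPM in KO and 24.4 CPM in het, and its target Cish had 24.2 CPM in KO and 37.4 CPM in het. In ILC2s, Socs2 had 75.9 CPM in KO and 125 CPM in het. Irs2, an adaptor that IL-4Rα uses, had ratios of 0.667 in cluster 0 and 0.620 in cluster 5. Socs3 was called higher in clusters 1, 12, 17 and 18 and in NK cells, and lower in cluster 10. Of 61 values of partner and related chains, 0 were called higher and 2 lower. These were Crlf2, the TSLP receptor chain, in ILC2s (67.8 CPM in KO, 102 CPM in het) and Il7r in cluster 3 (6.72 CPM in KO, 11.5 CPM in het). Other ligands of the gamma chain gave 6 values with 1 called higher, Il2 in ILC2s, where 45 of 93 KO UMIs came from 1 cell.

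The genes with the most similar patterns were ranked by Pearson's r of log2(CPM + 5) over 22 classes, among 13187 genes with at least 200 UMIs. Classes share libraries and differ in depth, so r is a description. The names depend on the measure: ranked by Spearman's rho, 4 of the 10 genes kept none of their 3 nearest genes, 4 kept 1 and 2 kept 2. Csf2rb was closest to its paralog Csf2rb2 (0.966), and Csf2ra and Csf2rb had 0.880 with each other. Il9r was closest to Ccl1 (0.979), Il5 (0.977) and Il2 (0.960), and Fam129c (0.928) and the B cell factor gene Pax5 (0.927) were among the 3 closest to Il5ra. Il9r (41 UMIs in KO, 64 in het) and Il5ra (109 in KO, 86 in het) were under the 200 UMIs asked of the compared genes. ILC2s held 43.9% of the Il9r UMIs in KO and 56.2% in het, so the r values of Il9r rest largely on that class. Il13ra2 was closest to Gpr182 (0.936), Slc22a8 (0.928) and Slco1a4 (0.885), and Egfr to Serping1 (0.980), Foxp2 (0.970) and Fzd2 (0.970). Il13ra1 was closest to the iron regulator gene Hfe (0.954), Atp7a (0.919) and Catip (0.914), and Il2rg to Rasal3 (0.935), Ltb (0.927) and Gltscr2 (0.913). Csf2ra was closest to Nuak2 (0.944), Il1b (0.929) and Mpeg1 (0.927), and after Csf2rb2 the closest to Csf2rb were Clec12a (0.952) and Dhx58 (0.941). Il4ra had the weakest leading match, Cyth4 (0.853), before Lncpint (0.841) and Samhd1 (0.829), and Stat6 was closest to Irak4 (0.893), Cmtm6 (0.860) and Tapbp (0.859). Among the 10 genes, Il4ra had 0.699 with Stat6, 0.603 with Il2rg and 0.268 with Il13ra1, and Il2rg had -0.778 with Egfr.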

How the data were processed

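Dural meninges cells of 1 KO and 1 het library were profiled with droplet single-cell RNA sequencing. The authors deposited UMI counts per gene and barcode, and the submitters' processing notes name Cell Ranger 3.0.2 and mm10. Which gene annotation was counted is not stated in the labels or headers. Clusters, sex labels and cell type names are the authors' deposited metadata. The authors' percent of mitochondrial UMIs, deposited per cell, was not used for a result.

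Counts of the annotated cells were summed per class and library and scaled to all their UMIs (Python 3.11.15, numpy 2.4.6, scipy 1.17.1, pandas 2.3.3). Intervals are Poisson for levels, Clopper-Pearson for shares and conditional binomial for ratios. Thinned shares were computed as exact expectations, with no random draws, and leave out 21 KO and 13 het cells under 1000 UMIs. Scrublet (scanpy 1.11.5) called 5 KO and 0 het cells, so it had not worked as a caller, and its top 10% of scores (609 KO, 586 het cells) were used as an alternative. No doublet was removed from the main values. The scripts were tested on simulated data. All 10 genes were named, with their 3 most similar genes each, and genes of the pathway lists that were called in a class described, plus the main ligands and Csf2rb2. Some genes that this rule would name are not reported here. Genes and lists were chosen with earlier results of these data known. Alternatives were per-cell means, leaving out the top cell, other filters, scaling by the median ratio, sex labels, high doublet scores and the 10x matrices.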

Additional observations from a re-analysis of the deposited data

Results flagged for a closer look

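Egfr differed between KO and het in opposite directions in different clusters. Its KO/het ratio was 3.36 in cluster 12, 0.636 in cluster 11 and 0.658 in cluster 14, and the difference between these clusters was not tested.

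Signal was also found in barcodes the authors did not annotate, 5452 in KO with a median of 2562.5 UMIs and 4986 in het with a median of 2343 UMIs. Egfr there had 2315 UMIs (81.9 CPM) in KO and 1745 UMIs (68.9 CPM) in het, a ratio of 1.19 (1.12 to 1.27). Il13ra1 there had 343 UMIs (12.1 CPM) in KO and 256 UMIs (10.1 CPM) in het, a ratio of 1.20 (1.02 to 1.42). Csf2ra went the other way, with 665 UMIs (23.5 CPM) in KO and 680 UMIs (26.9 CPM) in het, a ratio of 0.876 (0.786 to 0.976). For the rest of the 10 genes the interval included 1. Which cells these barcodes hold, and their part in the ratios, was not tested.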

How the results depend on the processing

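The numbers of member and class pairs higher in KO and member and class pairs lower in KO were 2 and 4, and those of the pathway lists by class 28 and 36. Female-labelled cells gave 1 and 1 pairs of the receptor genes, and 17 higher pathway pairs. Those of the receptor genes were Csf2rb in cluster 12 (1.68) and Il13ra1 in cluster 14 (0.662), so none of the 6 main calls passed the UMI minimum and the fold there. Male-labelled cells gave 1 and 2 pairs, of which Il13ra1 in cluster 7 (2.98) is a main call. A minimum of 20 UMIs gave 15 and 17, and 73 and 86 of the pathway lists. A minimum of 1 UMI gave 42 and 37, and 252 and 268 of the pathway lists. A 2-fold threshold gave 0 lower pairs of the receptor genes, and 12 and 10 of the pathway lists. Of the 6 called ratios, 2 were reversed in female-labelled cells, Il13ra1 in cluster 7 (0.948) and Egfr in cluster 11 (1.06). In male-labelled cells 1 was, Il13ra2 in cluster 5 (1.20). Ratios that were not called crossed 1 too. Il2rg in cluster 12 had 34.9 CPM in KO and 45.5 CPM in het, but a ratio of 1.07 in female-labelled cells. Egfr in cluster 6 had 8.52 CPM in KO and 5.69 CPM in het, but a ratio of 0.911 in male-labelled cells. The cause was not tested. All 78 ratios of the receptor genes stayed inside their main interval with the 10x matrices, median scaling or the top cell left out. With per-cell means 75 did, and 71 without high doublet scores, but 66 in female-labelled and 61 in male-labelled cells. No paired analysis was possible because each genotype has 1 library. Intervals cover counting error only, and Il5ra and Il9r lie under the 100 UMIs a call needs in every class.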
